A study of Danio rerio with 3 samples.

Results

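The transcriptome described here is that of the whole wild-type zebrafish (Danio rerio) larva at 6 dpf (days post fertilization), read from 1 RNA-seq library of untreated larvae of the AB strain, labelled WT. The series holds 3 libraries of AB larvae at 6 dpf: 5MO, from larvae injected with a morpholino (an antisense oligonucleotide) against *atg5*, 5mRNA, from larvae injected with *atg5* mRNA, and WT. The WT larvae were not injected, and the other libraries were used only to work out how many reads stand behind the WT values. Of the 28117 rows of the deposited expression table, the 28084 that name a gene were ranked by their WT value in RPKM (reads per kilobase of transcript, scaled to the size of the library), which corrects for gene length and so allows genes to be set side by side. Each value is an average over a pool of larvae in a single library, so no value has a replicate error, and the 95% intervals given are Clopper-Pearson intervals of the read share that cover counting error only.

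By 6 dpf a zebrafish larva swims and hunts by sight. Its trunk is mostly skeletal muscle, its eyes are large for its body, and its liver, pancreas and gut have taken over from the yolk as the source of nutrients. A whole-larva library mixes the RNA of all these tissues in proportion to their cell number and to the RNA each cell holds, and fewer cells of a type and less RNA per cell cannot be told apart in such a sample. Zebrafish also carry many genes as a pair of copies, named with a final a and b, which mostly go back to a duplication of the whole genome in an ancestor of the teleost fishes. How each pair divides its expression is the second subject below.

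The aligner took 27492652 read pairs of the WT library, each 300 nt long in all, and placed 87.68% of them at a single position and 4.01% at several. The RPKM values fall on whole-number steps, from which a total of 19502144 reads was recovered. At this depth 19098 of the 28084 genes (68%) reached 1 RPKM or more, 7811 reached 10, 814 reached 100 and 135 reached 1000. A further 3434 genes (12.2%) were listed at 0, and the median over all genes was 3.59 RPKM. The 33 rows that name no gene were left out. Each named row was counted as a gene, although 392 symbols stand on more than 1 row (830 rows, 2 of them among the 500).

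Expression was concentrated in few genes. The highest gene, *actc1b*, held 2.02% of the summed RPKM, the 10 highest held 9.92%, the 100 highest 36.4% and the 500 highest 60.8%. The upper 210 genes held 50% of the sum, and 6179 genes held 90%. The 500 highest genes, which are 1.78% of the genes ranked, ended at 163.02 RPKM, against 162.75 RPKM for the gene at rank 501, so the limit at 500 falls in a continuous slope and not in a gap. Every gene among the 500 rests on at least 1092 recovered reads, which puts its counting error within 6.11% of its level.

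**Figure D1:**
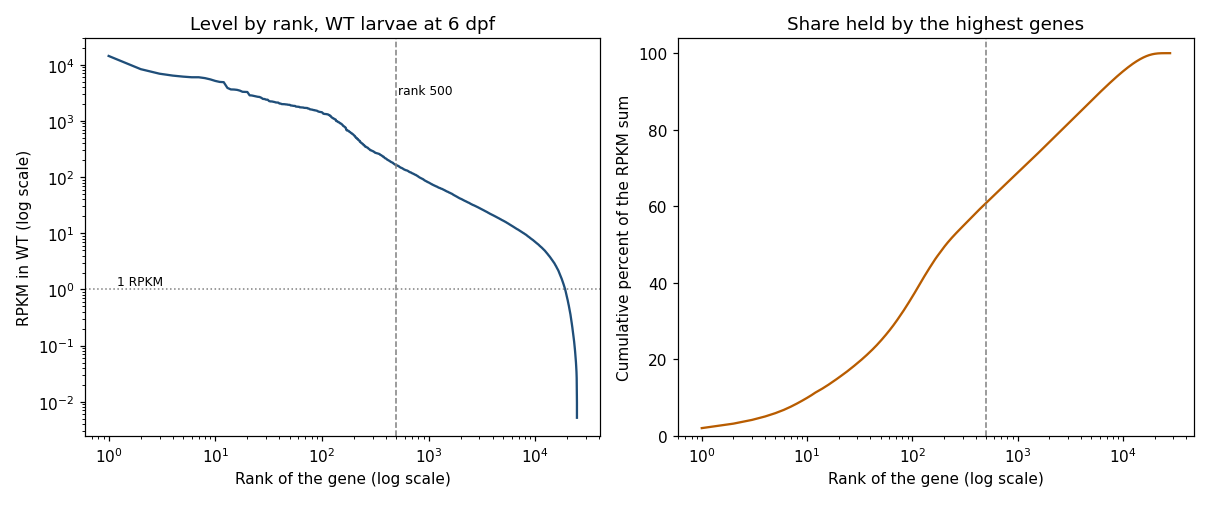
RPKM of each gene above 0 in the WT library against its rank (left, both axes logarithmic) and the cumulative percent of the summed RPKM held by the highest genes (right, logarithmic rank axis). The dashed line marks rank 500, where the level is 163.02 RPKM and the cumulative share 60.8%, and the dotted line marks 1 RPKM, which 19098 genes reach.

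The top of the ranking belonged to fast skeletal muscle, the ribosome and the mitochondrion. First was *actc1b*, an actin of the muscle thin filament (chr17:117124-124703 in build danRer10), at 14314 RPKM with an interval of 14268 to 14361. Second was *pvalb2*, a parvalbumin that binds calcium in fast fibers, at 8333 RPKM (8287 to 8379), and *pvalb1* was at 6133 RPKM. The gap between *actc1b* and *pvalb2* was the widest step in the upper 10 and lay far outside counting error. Also among the upper 10 were the myosin light chain gene *mylz3* at 5770 RPKM and the tropomyosin gene *tpma* at 5476 RPKM. Of the mitochondrial genome, the cytochrome c oxidase genes *mt-co2*, *mt-co1* and *mt-co3* stood at 6917, 5978 and 5145 RPKM. Protein synthesis was represented there by *rps2*, a protein of the small ribosomal subunit, at 6397 RPKM and by *eef1a1l1*, an elongation factor, at 5979 RPKM. The levels of *eef1a1l1* (5953 to 6006) and *mt-co1* (5951 to 6006) did not differ beyond their counting intervals. The gene at rank 11, LOC101885203 at 4939 RPKM, is annotated as a noncoding RNA and is given no role in the sources used here.

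To ask which tissues the 500 highest genes stand for, each gene was put in a class by its symbol, of either a tissue or a function shared by many cell types. Tissue classes took 149 of the 500 genes and 31.9% of their RPKM, shared classes took 231 genes and 53.9%, and 120 genes with 14.2% fitted no class. Of those 120, 34 carry only a clone-based or locus symbol. By type of gene, 477 of the 500 were annotated as protein-coding and 4 as noncoding RNA.

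**Figure D2:**
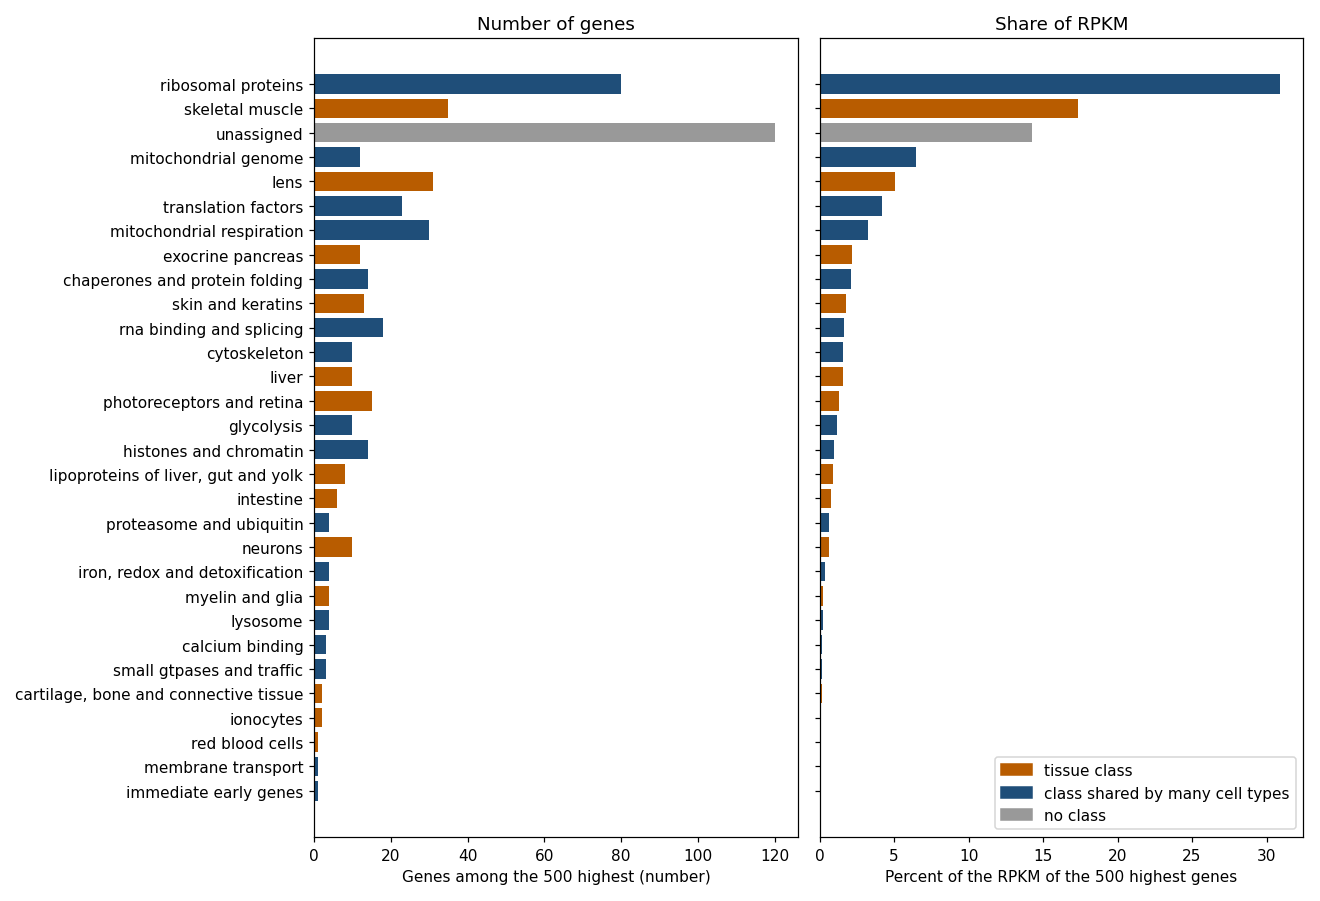
Number of genes (left) and percent of the RPKM (right) that each class holds among the 500 highest genes of the WT library, with tissue classes, classes shared by many cell types and unassigned genes in separate colors. Ribosomal proteins lead with 80 genes and 30.9% of the RPKM, and skeletal muscle leads the tissue classes with 35 genes and 17.4%.

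Ribosomal protein genes were the largest shared class. Of 84 such genes, 80 were among the 500, and together these 80 held 30.9% of the RPKM of the 500. Over the 84 the median was 1557 RPKM, and the highest value was 6397 RPKM for *rps2*. It was followed by *rps20* at 3861 RPKM, *rplp0* of the ribosomal stalk at 3615 RPKM, *rps15* at 2781 RPKM, *rpl3* at 2460.4 RPKM, *rpl26* at 2450 RPKM and *rpl7* at 2386 RPKM. The 4 outside the 500 were *rpl7l1* at 46.5 RPKM, *rps19bp1* at 17.8 RPKM, *faub* at 17.03 RPKM and *rps8b* at 9.64 RPKM. The first and second of these are named for their likeness to or binding of a ribosomal protein, and *faub* and *rps8b* are each the lower copy of a pair. Translation factors added 23 genes and 4.18%, with *eef1a1l1* and the elongation factor gene *eef2b* (2217 RPKM) highest.

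The mitochondrial genome gave 12 of its 13 protein genes to the 500, with 6.43% of the RPKM, all of them read from a single circular molecule. Within it the genes of cytochrome c oxidase were highest, mt-cyb of the cytochrome bc1 complex had 1845 RPKM and *mt-atp6* of the ATP synthase had 1864 RPKM. The NADH dehydrogenase genes lay lower, between 1120 RPKM for *mt-nd1* and 463 RPKM for *mt-nd5*. The gene outside the 500 was *mt-atp8*, at 121.5 RPKM and rank 676. Its annotated span, MT:8894-9058, is shorter than the 300 nt of a read pair and overlaps that of *mt-atp6*, so its level is uncertain. Nuclear genes of respiration and mitochondrial exchange added 30 genes and 3.23%, led by *slc25a5*, an ADP/ATP carrier of the inner membrane, at 3567 RPKM.

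The other shared classes were smaller. Chaperones and protein folding held 14 genes and 2.11%, with *hspa8* (2579 RPKM) and *hsp90ab1* (2383 RPKM) at the top. RNA binding and splicing held 18 genes and 1.66%, and the cytoskeleton 10 genes and 1.59%, with the cytoplasmic actin gene *actb2* highest at 3265 RPKM. Glycolysis held 10 genes and 1.18%, with *gapdh* at 2726 RPKM. Genes often used as reference genes were far from equal in level: *gapdh* and *actb2* stood far above *ppiab* (275.7 RPKM), and *hprt1* and *tbp* had only 13.9 and 7.57 RPKM.

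Among the genes that fitted no class, several are widely used in cells. The nucleoside diphosphate kinase genes *nme2b.2* and *nme2b.1*, which lie side by side on chromosome 19, had 3296 and 1305 RPKM. The ribosome-bound scaffold gene *gnb2l1* (rack1 in current RefSeq naming) had 2664 RPKM and *tpt1*, the translationally controlled tumor protein, had 1878 RPKM. Apart from these, the mitochondrial uncoupling protein gene *ucp1*, also without a class, had 1264 RPKM. The highest with only a clone-based symbol was *zgc:171772*, at 2834 RPKM.

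Skeletal muscle was the largest tissue class, with 35 genes among the 500 and 17.4% of their RPKM. All 10 muscle markers listed were among the 500, with a median of 3453 RPKM. That list holds none of the slow-muscle genes given below and was chosen with earlier results of these data known. It is therefore not separate support for the place of the class. The contractile apparatus of fast fibers was present with each of its parts. Of the thick filament, the myosin heavy chain gene *myhz1.1* had 2852 RPKM, *myhz1.2* 845 RPKM and *myhz2* 794 RPKM, and the light chain gene *mylpfa* had 4887 RPKM. On the thin filament, the troponin T gene *tnnt3b* had 3630 RPKM, the troponin C gene *tnnc2* 1657 RPKM and the troponin I gene *tnni2a.4* 1474 RPKM. For calcium uptake and energy supply, the sarcoplasmic reticulum pump gene *atp2a1* had 3276 RPKM and the creatine kinase genes *ckma* and *ckmb* had 2687 and 3458 RPKM. The heavy chain genes lie side by side on chromosome 5 and are much alike in sequence, so the split of reads among them is uncertain.

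Slow fibers, which form a thin layer at the surface of the larval trunk, were lower by the genes listed for them. The lists are not matched gene by gene: parvalbumin genes stand only in the fast list, and *casq2* and *mybpc1* only in the slow list. Of 24 fast-muscle genes 18 were among the 500 and their median was 819 RPKM, while of 16 slow-muscle genes 2 were among the 500 and the median was 22.8 RPKM. Those 2 were the light chain gene *myl10* at 319 RPKM and the slow myosin heavy chain gene *smyhc1* at 314 RPKM, whose intervals of 309 to 328 and 309 to 319 overlap. Summed, the fast list held 6.21% of the RPKM of all genes and the slow list 0.164%. Heart muscle was lower again. Its highest marker was the atrial and ventricular light chain gene *myl7* at 30.7 RPKM, the ventricular myosin gene *vmhc* had 15.5 RPKM, the atrial myosin gene *myh6* had 0.838 RPKM, and none of the class reached the 500.

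The lens was the second tissue class by RPKM, with 31 genes and 5.03%, although it is a very small organ. Crystallins are the soluble proteins that fill its fiber cells. The beta crystallin genes had 9 of 13 members among the 500, led by *cryba1l1* at 2128 RPKM and *crybb1* at 1746 RPKM. The gamma crystallins had 22 of 41, led by *crygm2d13* at 1799 RPKM. The alpha crystallins had none of 3: *cryaa* had 44.9 RPKM, *cryabb* 0.519 RPKM, and *cryaba* was listed at 0. The single largest run of neighbors among the 500 was of this class, with 19 crygm2d genes on chr9:22280292-22528713. The 21 crygm2d genes ranged between 42.7 RPKM for *crygm2d5* and 1799 RPKM for *crygm2d13*. They are near-identical copies whose order rests on how reads that fit several of them were counted, which is not given in the sources used here. Structural lens genes outside the crystallins were lower, with *lim2.4* at 119 RPKM, *bfsp2* of the beaded filament at 92.6 RPKM and the water channel genes *mipa* and *mipb* at 40.7 and 80.2 RPKM.

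Photoreceptors and retina held 15 genes and 1.29%. The highest was *rho*, the rod opsin, at 902 RPKM (891 to 912). Of the cone opsins, the ultraviolet opsin gene *opn1sw1* had 571 RPKM, the long-wavelength *opn1lw2* 233 RPKM, the blue *opn1sw2* 200.6 RPKM and the green *opn1mw1* 157 RPKM. Their intervals do not overlap, so this order exceeds counting error. Other members of the same opsin subfamilies were low: *opn1mw2* had 5.34 RPKM, *opn1lw1* 0.730 RPKM and *opn1mw3* 0.149 RPKM, and *opn1mw4* was listed at 0. The annotated span of *opn1mw2* lies inside that of *opn1mw1*, so the split of reads between them is uncertain. Apart from the opsins, the transducin alpha subunit gene and the phosphodiesterase genes of rods were lower than those of cones. The rod alpha subunit gene *gnat1* had 25.5 RPKM, against 426 RPKM for the cone gene *gnat2*. The other transducin subunits did not separate in this way. Those listed for rods, *gnb1a*, *gnb1b* and *gngt1*, had 114, 74.7 and 67.8 RPKM. Those listed for cones, *gnb3a*, *gnb3b*, *gngt2a* and *gngt2b*, had 20.2, 253, 34.7 and 537 RPKM. Rod phosphodiesterase genes *pde6a* and *pde6b* had 13.6 and 6.07 RPKM, against 182 RPKM for the cone gene *pde6c*. The rod arrestin gene *sagb*, at 173 RPKM, was among the 500.

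The exocrine pancreas, which makes digestive enzymes, held 12 genes and 2.14%. Its highest was *try* (*prss1* in current RefSeq naming), a trypsin, at 1880 RPKM. The chymotrypsin gene *ctrb1* had 1696 RPKM and the trypsin gene *prss59.2* had 1609 RPKM. Elastases followed with *ela2l* at 895 RPKM, *ela2* at 514 RPKM and *ela3l* at 497 RPKM, and the amylase gene *amy2a* had 300.02 RPKM. A further 3 of the unassigned 500 are enzymes of this kind by their current RefSeq names: *zgc:92041* (*cela1.6*) at 1783 RPKM, *zgc:112160* (*ctrb.3*) at 282 RPKM and *zgc:136461* (*ctrb.2*) at 181 RPKM. Hormones of the endocrine islets, in the same organ, were far lower: the insulin gene *ins* had 16.5 RPKM, the somatostatin gene *sst2* 7.04 RPKM and the glucagon gene gcga 5.80 RPKM.

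Liver genes held 10 places and 1.56%. Among them *pck1*, the gluconeogenic PEP carboxykinase, had 941 RPKM (931 to 952). Another was *fabp10a*, the liver fatty acid binding protein used as a hepatocyte marker in zebrafish, with 816 RPKM (797 to 837). Plasma protein genes were spread widely, with *fetub* at 768 RPKM, *rbp4*, the retinol carrier, at 591 RPKM, the transferrin gene *tfa* at 186 RPKM, the fibrinogen genes *fga* and *fgb* at 95.9 and 59.6 RPKM, and *hpx* at 0.329 RPKM. Lipoprotein genes, which the larval liver, gut and yolk layer all use, held 8 places and 0.863%. Of these, *apoa1b* had 1376 RPKM, *apoa2* 584 RPKM, *apoa1a* 495 RPKM and apoeb 414 RPKM. A group of 6 of them lies together on chr16:23999038-24076129. The vitellogenins, the yolk proteins of the adult female liver, had no member above 0.119 RPKM, and 4 of 7 were listed at 0.

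In the intestine class 6 genes were among the 500, with 0.740%. They were *chia.2*, a chitinase, at 950.0 RPKM, the galectin gene *lgals2b* at 642 RPKM, the bile acid and fatty acid binding proteins *fabp6* and *fabp2* at 581 and 477 RPKM, the retinol binding gene *rbp2a* at 289 RPKM and *cyp3a65* at 259 RPKM. Markers of the enterocyte brush border were lower, with *vil1* at 126 RPKM, anpepb at 84.8 RPKM and the peptide transporter gene *slc15a1b* at 54.4 RPKM. The endocytic receptor gene *cubn* had 1.90 RPKM.

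Skin and keratins held 13 genes and 1.76%. The keratin genes *krt5*, *krt91* and *krt4* had 1990, 1313 and 1281 RPKM, and 10 of 19 keratin genes were among the 500. The transcription factor gene *tp63*, a regulator of the basal layer, had 8.08 RPKM.

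Neurons held 10 places and 0.628%. These were 2.93% of the 341 genes of the class, above the 1.78% of all genes that are among the 500 and below the 22.3% for skeletal muscle and the 46.3% for the lens. Of neuron markers, the synaptic gene *snap25a* had 269.3 RPKM, *stmn1b* 241 RPKM and the RNA-binding genes *elavl4* and *elavl3* 138 and 137 RPKM. The intervals of *elavl4* (135 to 142) and *elavl3* (133 to 141) overlap. All 10 neuron markers were at or above 31.0 RPKM, so the list was narrow in range as well as moderate in level. Glia held 4 genes, with the glutamine synthetase gene *glula* at 431 RPKM and the glutamate transporter gene *slc1a2b* at 233 RPKM. The myelin basic protein gene *mbpa* had 148 RPKM.

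Blood, skeleton and ionocytes (ion-transporting cells) each had few genes among the 500. As a share of their class these were 4.76% of 21 red blood cell genes and 6.67% of 30 ionocyte genes. Of 174 genes of cartilage, bone and connective tissue they were 1.15%, and of all genes 1.78%. The ionocyte genes were *atp1a1a.1* at 263 RPKM and *atp1a1a.4* at 229 RPKM, whose annotated spans overlap. The classes of heart muscle, blood vessels, kidney, pigment cells and leukocytes had none. Of the globins, the embryonic and larval genes *hbae3*, *hbbe1.1* and *hbbe2* had 213, 133 and 65.0 RPKM. The globin gene *hbz* had 32.5 RPKM. Other embryonic genes were low, with *hbae1* at 0.545 RPKM and *hbbe3* at 0.391 RPKM. The adult genes *hbaa1* and *ba1* were listed at 0 and *zgc:92880* (*hbba2*) had 0.158 RPKM. The annotated spans of *hbaa1* and *ba1* overlap, as do those of *hbae1* and *hbbe1.1*, and that of *hbbe2* lies inside that of *hbz*. The split of reads within each of these pairs is therefore uncertain. The only red blood cell gene among the 500 was *hbae3*, at rank 400. Of cartilage, bone and connective tissue, *sparc*, a collagen-binding matrix protein, had 291 RPKM and *col1a1a* 268 RPKM, and these were the only members among the 500. Cartilage markers were intermediate, with a median of 25.3 RPKM and the highest value for the type II collagen gene *col2a1a* at 90.1 RPKM. Bone markers were low: the median of 10 was 0.554 RPKM, the osteoblast regulators *sp7* and *runx2a* had 0.210 and 0.0977 RPKM, resting on 23 and 3 reads, and the osteocalcin gene *bglap* was listed at 0. The highest bone marker was *phex* at 11.3 RPKM, and *col10a1a* had 5.48 RPKM.

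**Figure D3:**
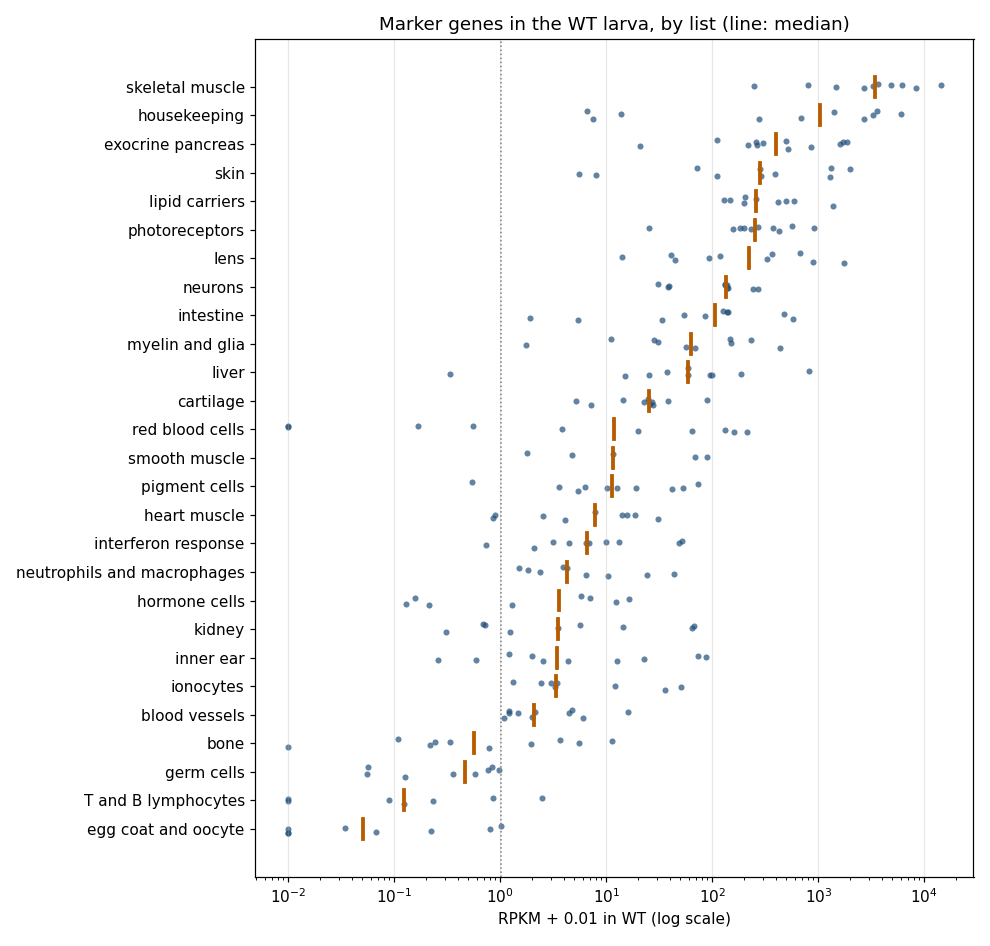
RPKM + 0.01 in the WT library (logarithmic axis) of each marker gene, 1 point per gene and 1 line of points per list, with the median of each list as a vertical bar and the dotted line at 1 RPKM. Skeletal muscle has the highest median, 3453 RPKM, and egg coat and oocyte the lowest, 0.0412 RPKM.

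The tissues were also compared by 27 lists of marker genes, which were chosen with earlier results of these data known. Of 256 symbols listed, 252 were found, 6 of them through their current RefSeq symbol, and *lcp1*, *tshb*, *ighm* and *zp3* were not analysed here. After muscle, the tissue lists were led by exocrine pancreas (median 399 RPKM), skin (284 RPKM), lipid carriers (259 RPKM), photoreceptors (252 RPKM) and lens (223 RPKM). Neurons (134 RPKM), intestine (105 RPKM), myelin and glia (62.6 RPKM) and liver (59.22 RPKM) followed. Apart from red blood cells, the lists of the remaining organs had no member above 100 RPKM, with the inner ear led by the parvalbumin gene *pvalb8* at 87.0 RPKM, smooth muscle by *tagln* at 88.6 RPKM, pigment cells by *tyrp1b* at 73.4 RPKM and the kidney by the cadherin gene *cdh17* at 66.8 RPKM. Lymphocytes and the germ line were at the bottom. T and B lymphocyte markers had a median of 0.115 RPKM, germ cell markers stayed at or below 0.966 RPKM, and of the egg coat and oocyte list 3 of 8 were listed at 0. With medians this spread, a list's place depends on which genes it names: the lens list, for example, ran between 14.1 RPKM for *cryba1a* and 1746 RPKM for *crybb1*.

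Of interferon-stimulated genes, *isg15* and *rsad2*, both antiviral, were the highest of the list, at 51.3 and 48.7 RPKM. The median of the list was 6.61 RPKM. In the list 9 of 10 reached 1 RPKM and in the wider class 34 of 52 (65.4%), against 68% of all genes. Neutrophil and macrophage markers had a median of 4.29 RPKM, with *lect2l* at 43.3 RPKM and the lysozyme gene *lyz* at 24.0 RPKM.

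Some of the 500 genes were neighbors on their chromosome. Of them, 131 lay within 50 kb of another, in 45 runs, 8 of which held 3 or more genes. That number takes in 12 genes of the mitochondrial genome and the 19 crygm2d genes. How many of any other 500 genes lie this close was not computed, so the number does not show that high genes cluster. After the crystallin run and the mitochondrial genome, the longest were the 6 genes of the keratin run on chr19:5422878-5505124, which includes the translation factor gene *eif1b*, the apolipoprotein run on chromosome 16 and 5 genes around the myosin heavy chains on chr5:31606225-31708976. By chromosome, 17 owed 52.1% of its summed RPKM to *actc1b* alone, and 12 owed 33.1% to *pvalb2*. Chromosome 4, with 6.65% of the genes, held 1.84% of the summed RPKM.

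Pairs of paralogs were then formed from symbols that differ only in a final a or b. There were 2696 such pairs, of which 2616 had a summed level of at least 1 RPKM. The rule reads names alone, so it also takes in genes whose letter has another meaning, such as sdha and sdhb, which are different subunits of an enzyme. With the pairs whose letters are shared with mammals left out, 2579 remained. Members of the 2616 pairs made up 22.4% of the summed RPKM of all genes. For each pair the ratio of the a copy over the b copy was taken as log2 of (RPKM + 0.1), so that low copies do not give extreme values.

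Equal sharing was not the rule, and both letters were found on the higher copy. The copies were at least 4-fold apart in 781 pairs (29.9%) and under 2-fold apart in 1105 (42.2%), and the median absolute log2 ratio was 1.23. The a copy was the higher in 54.0% of pairs. The higher copy held a median of 70.5% of the pair's sum, and summed over all pairs the higher copies held 77.8%. For most pairs the difference was larger than counting error: of 2584 pairs with reads in both copies, 299 (11.6%) had a 95% interval of the ratio that includes 1. Across pairs the log2 levels of the copies had a Pearson r of 0.45 and a Spearman *rho* of 0.47 (n = 2616 pairs of 1 library, which share its depth and are not independent replicates). At the limit of 4-fold, the pairs just inside were *ppm1ba* with *ppm1bb*, *pmela* with *pmelb* and *eif1axa* with *eif1axb*, at log2 ratios of -2.002, 2.003 and -2.008. Those just outside were *ankrd6a* with *ankrd6b*, *msna* with *msnb* and *hapln1a* with *hapln1b*, at log2 ratios of -1.996, 1.995 and 1.993.

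**Figure D4:**
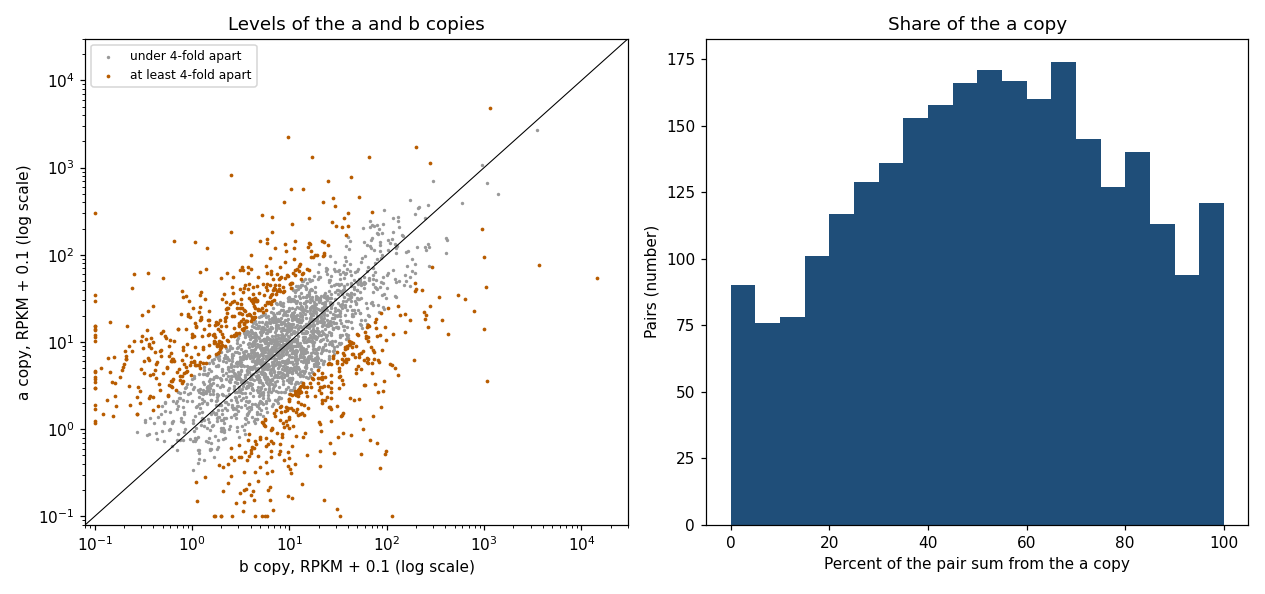
Level of the a copy against that of the b copy for 2616 pairs in the WT library (left, RPKM + 0.1, both axes logarithmic, line of equality drawn), with pairs at least 4-fold apart in color, and the number of pairs by the percent of the pair sum that comes from the a copy (right). Of the pairs, 781 are at least 4-fold apart, and the histogram is broad, with shares in the middle of the range more frequent than those near its ends.

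The share of unequal pairs was highest among the pairs with the highest sums, and did not rise steadily below them. A pair can reach a high sum through 1 copy alone, so the sum and the inequality of a pair are not independent. Among 232 pairs with a summed level of 100 RPKM or more, 41.4% were at least 4-fold apart, against the 29.9% over all pairs, and the median absolute log2 ratio was 1.63. The share was 30.8% for sums of 20 to 100 RPKM, 26.0% for 5 to 20 RPKM and 31.1% for 1 to 5 RPKM. Pairs with both copies in the same tissue class were at least 4-fold apart in 40.6% of 261 cases, pairs within a shared class in 35.1% of 319, and pairs of unassigned genes in 27.4% of 2003. Of the 2616 pairs, 104 had a copy among the 500 highest genes and 16 had both.

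**Figure D5:**
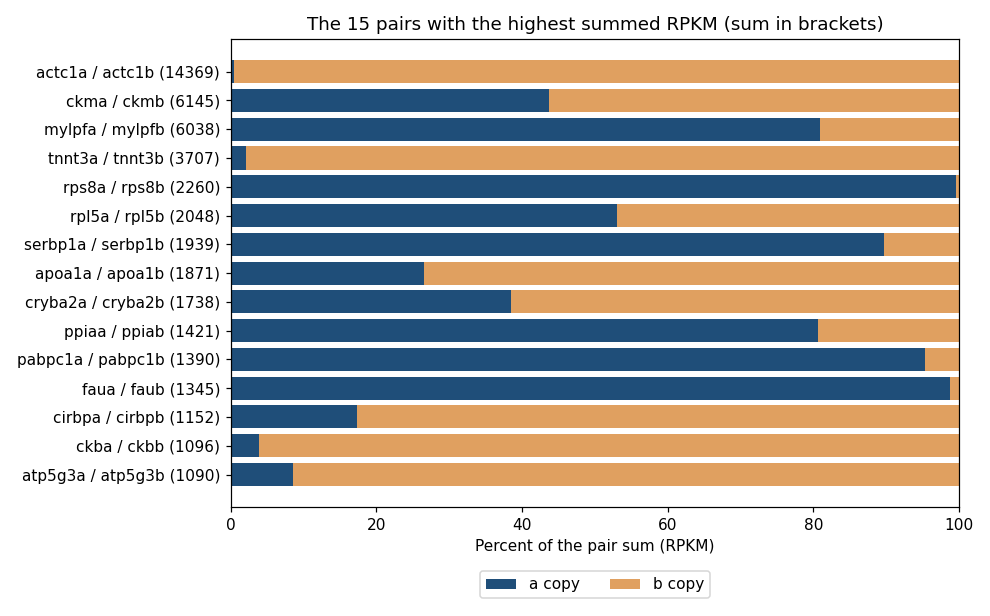
Percent of the pair sum in the WT library that comes from the a copy and from the b copy, for the 15 pairs with the highest summed RPKM (sum in brackets). The a copy holds 0.380% in *actc1a* and *actc1b*, 43.7% in *ckma* and *ckmb*, and 99.6% in *rps8a* and *rps8b*.

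The 15 pairs with the highest sums showed every degree of sharing. At one end, *actc1a* had 54.6 RPKM and *actc1b* 14314 RPKM, so the a copy held 0.380% of the pair. In contrast, the creatine kinase copies *ckma* and *ckmb*, at 2687 and 3458 RPKM, were within 2-fold. The light chain copies *mylpfa* and *mylpfb*, at 4887 and 1151 RPKM, differed 4.25-fold (4.15 to 4.35). For the ribosome, *rps8a* and *rps8b* had 2250 and 9.64 RPKM and *faua* and *faub* 1328 and 17.03 RPKM, whereas *rpl5a* and *rpl5b* had 1086 and 962 RPKM, a ratio of 1.13. In all 3 of these ribosomal pairs the a copy was the higher, by very different amounts. The apolipoprotein copies *apoa1a* and *apoa1b* had 495 and 1376 RPKM, and the beta crystallin copies *cryba2a* and *cryba2b* had 669 and 1069 RPKM. Both of these pairs had the b copy higher and both copies among the 500. The b copy was also the higher for the brain creatine kinase copies ckba and ckbb, at 42.9 and 1053 RPKM, and for the cold-inducible RNA-binding copies cirbpa and cirbpb, at 200.2 and 951 RPKM. The a copy was the higher for the cyclophilin copies ppiaa and *ppiab*, at 1145 and 276 RPKM, and for *serbp1a* and *serbp1b*, at 1740 and 199 RPKM.

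Among pairs with sums of at least 100 RPKM, the largest differences included copies listed at 0. How reads that fit several similar copies were counted is not given, so a 0 does not show that a copy was not expressed. The cathepsin copy *ctsla* had 301 RPKM and *ctslb* was listed at 0, and for the cytochrome c pair *cycsa* was listed at 0 and *cycsb* had 112.5 RPKM. Over all 2616 pairs, 32 had a copy listed at 0. Among the pairs with the higher sums, the largest ratio with reads in both copies was that of *fabp10a* and *fabp10b*, at 816 and 2.41 RPKM, a 339-fold difference (242 to 489). It was followed by that of *mybpha* and *mybphb*, a myosin binding protein pair, at 3.51 and 1073 RPKM. Of similar size were those of *tmem54a* and *tmem54b*, at 145 and 0.553 RPKM, and of *actc1a* and *actc1b*. The synaptotagmin copies *syt1a* and *syt1b* had 142 and 0.964 RPKM, and the calpain copies *capn3a* and *capn3b* had 119 and 1.32 RPKM.

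The most equal pairs of this level were led by a neuronal receptor. The NMDA receptor subunit copies *grin1a* and *grin1b* had 127 and 129 RPKM, a ratio of 0.990 with an interval of 0.961 to 1.02 that includes 1. The ankyrin copies *ank3a* and *ank3b* had 65.3 and 62.7 RPKM, with a ratio of 1.04 whose interval also includes 1. For the neuronal sodium pump copies *atp1a3a* and *atp1a3b*, at 92.6 and 88.0 RPKM, the ratio of 1.05 (1.01 to 1.09) exceeded counting error by little. The aldolase copies *aldoaa* and *aldoab* had 261 and 249 RPKM.

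In skeletal muscle 13 of 34 pairs (38.2%) were at least 4-fold apart, in either direction. Over all 2616 pairs the share was 29.9%, and a class of 34 pairs is small. The b copy prevailed in troponin T, with *tnnt3a* at 77.0 RPKM and *tnnt3b* at 3630 RPKM, and in the calcium release channel, with *ryr1a* at 3.08 RPKM and *ryr1b* at 59.9 RPKM. The a copy prevailed in the methyltransferase pair *smyd1a* and *smyd1b*, at 268 and 15.9 RPKM, and in the M-line pair *myom1a* and *myom1b*, at 209 and 34.9 RPKM. Calsequestrin was even, with *casq1a* at 27.2 RPKM and *casq1b* at 27.4 RPKM. Neither letter marked the higher copy as a rule, and the a copy was the higher in 15 of the 34.

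In photoreceptors 7 of 14 pairs (50%) were at least 4-fold apart, against 29.9% of all pairs. The cone transducin subunits had *gnb3a* at 20.2 RPKM and *gnb3b* at 253 RPKM, and *gngt2a* at 34.7 RPKM and *gngt2b* at 537 RPKM, with the b copy higher in both. The rod arrestins *saga* and *sagb*, at 17.9 and 173 RPKM, went the same way. The opsin kinase pair *grk7a* and *grk7b*, at 66.2 and 3.24 RPKM, and the recoverin pair *rcvrna* and *rcvrnb*, at 56.3 and 4.61 RPKM, had the a copy higher. The cone arrestins *arr3a* and *arr3b* were within 2-fold at 377 and 265 RPKM. In the lens, *cryba1a* and *cryba1b* had 14.1 and 987 RPKM.

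Among neurons 22 of 80 pairs (27.5%) were at least 4-fold apart, close to the 29.9% of all pairs. The GABA-synthesizing enzyme pair *gad1a* and *gad1b* had 4.07 and 131 RPKM, and the stathmin pair *stmn1a* and *stmn1b* had 22.2 and 241 RPKM. The kinesin pair *kif5aa* and *kif5ab* had 59.22 and 9.46 RPKM. Some synaptic pairs stayed within 2-fold, such as *sypa* and *sypb* at 129 and 85.8 RPKM and the glutamate receptor copies *gria2a* and *gria2b* at 54.7 and 65.4 RPKM. Others did not, such as *syt1a* and *syt1b*, given above, and *snap25a* and *snap25b* at 269.3 and 131.7 RPKM. Of the 80 neuron pairs 30 (37.5%) were under 2-fold apart, against 42.2% of all pairs. Of glial pairs, *mbpa* and *mbpb* had 148 and 68.8 RPKM, while *plp1a* and *plp1b* had 1.76 and 30.7 RPKM and *fabp7a* and *fabp7b* had 151 and 5.79 RPKM.

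In liver 3 of 14 pairs (21.4%) were at least 4-fold apart, against 29.9% of all pairs, and 8 were within 2-fold. The stress-induced binding protein copies *igfbp1a* and *igfbp1b* had 115 and 101.9 RPKM, and the tyrosine catabolism copies *hpda* and *hpdb* had 119 and 68.4 RPKM. The 3 were *fabp10a* with *fabp10b*, given above, *agxta* with *agxtb*, at 40.6 and 198 RPKM, and the coagulation factor copies f9a and f9b, at 0.0754 and 3.89 RPKM. In the intestine class 6 of 8 pairs were at least 4-fold apart and none within 2-fold. The galectin copies *lgals2a* and *lgals2b* had 31.3 and 642 RPKM, and the retinol binding copies *rbp2a* and *rbp2b* had 289 and 5.19 RPKM.

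In cartilage, bone and connective tissue 22 of 42 pairs (52.4%) were at least 4-fold apart, against 29.9% of all pairs. The fibronectin copies *fn1a* and *fn1b* had 3.11 and 58.1 RPKM, the thrombospondin copies *thbs4a* and *thbs4b* had 0.655 and 66.5 RPKM and the periostin copies *postna* and *postnb* had 4.29 and 69.8 RPKM. Fibrillar collagens of high level were more even, with *col2a1a* and *col2a1b* at 90.1 and 79.7 RPKM and *col1a1a* and *col1a1b* at 268 and 117 RPKM. In contrast, *col5a2a* and *col5a2b* had 25.5 and 0.301 RPKM, and *col5a3a* and *col5a3b* had 0.281 and 20.4 RPKM, so copies of this family differed in both directions. In the chondrocyte regulator pair, *sox9a* had 25.9 RPKM and *sox9b* 8.57 RPKM.

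Among the classes of shared functions, the share of unequal pairs differed widely. Over all 319 pairs within a shared class it was 35.1%, against 29.9% of all pairs. In translation 9 of 15 pairs (60%) were at least 4-fold apart, a count that takes in *eif5a* with *eif5b*, which are different factors in spite of their names. The poly(A)-binding protein copies *pabpc1a* and *pabpc1b* had 1325 and 65.0 RPKM, the initiation factor copies *eif3ea* and *eif3eb* had 405 and 8.70 RPKM, and *eif3ba* and *eif3bb* had 182 and 2.42 RPKM. In mitochondrial respiration and exchange the share was 15 of 27 (55.6%), with the phosphate carrier copies *slc25a3a* and *slc25a3b* at 22.5 and 783 RPKM and the malate dehydrogenase copies *mdh1aa* and *mdh1ab* at 696 and 24.6 RPKM. In glycolysis it was 7 of 12 (58.3%). There the enolase copies *eno1a* and *eno1b* had 362 and 29.2 RPKM, and the triose phosphate isomerase copies *tpi1a* and *tpi1b* had 14.8 and 268 RPKM. Of proteasome and ubiquitin pairs, in contrast, 4 of 24 (16.7%) were at least 4-fold apart. For the cytoskeleton the count was 0 of 9 and for calcium binding 0 of 6. It was 6 of 23 (26.1%) for RNA binding and splicing and 30 of 100 (30%) for membrane transport. For immediate early genes it was 6 of 8.

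The pairs also shared a feature that their names do not give, their position. Of 2506 pairs with copies on different numbered chromosomes, 1402 (55.9%) fell on the 20 most frequent of 300 possible combinations of chromosomes. The most frequent were chromosomes 16 and 19 with 170 pairs, 17 and 20 with 132, 3 and 12 with 119, and 2 and 24 with 94. In the most frequent of these the higher copies were split almost evenly. The copy on 16 was the higher in 48.8% of pairs with 19, the copy on 17 in 50% of pairs with 20, and the copy on 3 in 53.8% of pairs with 12. Some others of the 20, with fewer pairs, were less even. The copy on 14 was the higher in 69.8% of 43 pairs with 21, and the copy on 5 in 38.1% of 42 pairs with 15. Pairs with both copies on the same chromosome, 83 in number, were at least 4-fold apart in 31.3%, and the rest in 29.8%.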

How the data were processed

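RNA-seq was measured in 1 pooled WT library, and no test or p-value was possible. The authors aligned read pairs (STAR 2.5.2a and build danRer10 per the submitters' processing notes, with the counter and annotation not given in the sources used here) and deposited RPKM values and mapping summaries. The deposited RPKM were used as given, without further normalization. Whether strand was used in counting is not stated, so overlapping genes are uncertain. Reads were recovered from the RPKM steps of the 3 libraries as the smallest whole numbers, of which the true number may be a multiple, and intervals are then wider than needed. All of the 24650 values above 0 lay within 0.01 reads of a whole number. This is no check, as each gene's length was chosen to make its reads whole. The total is 80.9% of the 24105294 uniquely mapped pairs, and was sought only below that number. On simulated data, 88.8% of 24318 genes got the simulated reads and 99.8% these or a divisor. In a separate simulation, 95.55% of 2000 pair ratios fell inside their 95% interval. Those pairs were drawn directly as read counts, so only the interval formula was checked, not the recovery of reads and lengths. Since no molecular identifiers were used and PCR copies count as reads, intervals cover counting error only.

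Genes were classed by patterns on their symbols, and several patterns that caught unrelated genes (cyclins, for example) were corrected after the assignments had been seen. Named genes were taken from the 30 highest genes, the 5 highest of each class among the 500, marker genes, the 15 highest, 15 most uneven and 10 most even pairs with a sum of at least 100 RPKM for the last 2 kinds, and pairs within a tissue class. Not every gene that this rule allows is described, and 1 is not reported here. Others, such as members of the families counted, were chosen after their values were seen. The members and lists were chosen with earlier results of these data known. Symbols were updated by gene ID from RefSeq names of assembly GRCz12tu, and no sequence is printed. Python 3.11.15, numpy 2.4.6, pandas 2.3.3 and scipy 1.17.1 were used.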

Additional observations from a re-analysis of the deposited data

Results flagged for a closer look

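The 33 rows of the table that name no gene were used in no ranking, but they carried signal. They held 35.8% of the whole RPKM sum of the WT library. By the recovered reads, which are the smallest possible, named genes took at least 18746602 of the fitted total of 19502144. This share of RPKM is therefore not a share of reads. The remainder does not measure the reads of the unnamed rows, since reads of named genes may be understated. Whether the RPKM of the unnamed rows is on the scale of the named genes is not known. Of the 33 rows, 29 were above 0, with listed values between 668 and 60882 RPKM, and 8 exceeded the highest named gene at 14314 RPKM. They span 213 to 14383 bases each, and their values do not fall on the read steps of the named genes, so no read number or interval can be given for them.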

How the results depend on the processing

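Of 43 alternative values for the 7 main results, 26 stayed within the counting or binomial interval set for them, or within 1.5 times for a count of genes, and 17 did not. Some of these outcomes were fixed in advance. A different number of highest genes or another RPKM limit changes a share or count by definition. The 26 and 17 therefore do not measure how stable the results are. A limit of 5 RPKM left 12188 genes. The share of the RPKM sum was 52.4% for the 250 and 68.7% for the 1000 highest genes. It was 59.5% without the mitochondrial genome, 60.848% with rows of the same symbol summed and 56.7% without the 10 highest genes. With the rows that name no gene kept it was 74.4%, but the scale of those rows is uncertain. With recovered reads in place of RPKM, the 500 genes with the most reads held 47.4% of the reads. Tissue genes held 39.2% of the reads of these 500. Recovered reads can be understated by a whole factor that differs between genes, so neither is an exact share of the true reads. Tissue genes numbered 77 of 250 and 244 of 1000, and held 32.2% and 30.5% of the RPKM there, 34.1% without the mitochondrial genome and 32.6% with current RefSeq symbols, an alternative added after seeing the data. With a pseudocount of 1, 22.2% of pairs were at least 4-fold apart and the median absolute log2 ratio was 1.03. The share with the a copy higher stayed between 53.6% and 54.1% throughout, including for protein-coding pairs only, which was also added after seeing the data. The pseudocount does not enter this share, so changing it could not move the share. The alternative that keeps only pairs of similar proteins was not run. No paired analysis was possible because each group has 1 library. Low genes are limited by depth: *sp7* rests on 23 reads and *runx2a* on 3.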

Other observations

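Genes of autophagy, the process that the study perturbed, had a median of 15.8 RPKM in the untreated larva. Of 33 listed by symbol, 32 reached 1 RPKM, against 68% of all genes, and none was among the 500 highest, which take 1.78% of all genes. The kinase gene *ulk2* was the highest at 160 RPKM and rank 511, followed by gabarapb, a member of the ATG8 family, at 122 RPKM. The cargo receptor gene *sqstm1* had 57.1 RPKM and *map1lc3b*, of the same ATG8 family as gabarapb, had 54.6 RPKM. The gene *atg5* had 9.08 RPKM (8.205 to 10.01), at rank 8398, and its conjugation partner *atg12* had 6.88 RPKM.

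Large gene families differed in how many members were listed at 0. Of 50 rows with a *hox* symbol, where *hoxc10a* and *hoxa9a* each stand on 2 rows, 46 reached 1 RPKM, against 68% of all genes. Of 253 receptors for smell and taste, 182 (71.9%) were listed at 0 and 1 reached 1 RPKM. Of 217 pim kinase-like genes, 157 (72.4%) were listed at 0. By comparison, 12.2% of all genes were listed at 0. How reads that fit several similar copies were counted is not given in the sources used here, so a value of 0 in these families does not show that a gene was not expressed.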
